A study of Homo sapiens with 9 samples.

Results

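KRTAP2-3, KRTAP1-5 and 7 keratin genes (KRT7, KRT8, KRT18, KRT19, KRT80, KRT81 and KRT86) were followed in MDA-MB-231 cells, a triple-negative human breast cancer line, after exposure to small extracellular vesicles (sEVs). These 9 genes were taken by symbol from the 60719 genes of the deposited table, and each symbol matched 1 row. The choice was made with earlier results of these libraries known. The rule for it names no contrast, and KRTAP2-3 is assumed here to have been selected on its higher level in TIS sEV than Cont sEV cells in an earlier fit. The differences between groups are therefore given as a description of these libraries.

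The study used 3 groups of 3 libraries, all wild-type MDA-MB-231 recipients kept for 72 h in vesicle-depleted medium. TIS sEV cells received vesicles from MDA-MB-231 donors that had been treated with nocodazole at 100 ng/ml for 72 h and then released, which the submitters call therapy-induced senescent donors. Cont sEV cells received vesicles from DMSO-treated donors, and No sEV cells received none. Donor senescence and any other action of nocodazole on the donors cannot be told apart in this design. Whether replicates came from separate cultures is not stated in the labels, and p-values therefore reflect the library-to-library spread, which may be technical.

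Keratins are intermediate filament proteins that assemble as pairs of a type I and a type II chain. KRT8 and KRT18 form the basic filament of simple epithelia, and KRT7 and KRT19 are added in ductal and glandular cells such as those of the breast. KRT80 is a type II keratin found in many epithelia. KRT81 and KRT86 are type II keratins of the hair cortex, and keratin-associated proteins such as those encoded by KRTAP2-3 and KRTAP1-5 are small cysteine-rich proteins that cross-link hair keratin filaments by disulfide bonds.

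The values are TPM, a relative abundance corrected for transcript length and scaled to a total of 1000000 per library. Levels can thus be compared between genes, while the number of reads behind them is unknown. Markers were mixed. VIM lay at 2206 to 2299 TPM, and 6 of 7 mesenchymal markers had at least 1 TPM in 3 libraries, as did 7 of 11 luminal epithelial markers (KRT8, KRT18, KRT19, EPCAM, GATA3, ERBB3 and ELF3) and 1 of 6 basal or myoepithelial markers (ACTA2). Of the luminal markers CDH1 reached at most 0.577 TPM and ESR1 at most 0.2199 TPM, and the basal keratin gene KRT5 was listed at 0 throughout. Summed over the 7 mesenchymal markers, the level was 3895 to 3982 TPM in TIS sEV cells, 3751 to 3864 in Cont sEV cells and 3788 to 3855 in No sEV cells. The 11 luminal markers, most of whose sum is KRT8, KRT18 and KRT19, came to 1211 to 1255, 1182 to 1191 and 1166 to 1221 TPM in the same order of groups, and the 6 basal ones to 3.86 to 4.72, 3.43 to 4.21 and 2.54 to 3.79 TPM. The 2 blood markers summed to at most 1.41 TPM and the 3 fibroblast markers to 7.56 to 9.32, 7.31 to 7.90 and 7.97 to 9.07 TPM in the same order of groups, and neither of these last sets separated the TIS sEV libraries from the other 6. Mitochondrially encoded mRNAs made up 1.69% to 2.07% of the summed TPM in TIS sEV cells, 2.14% to 2.84% in Cont sEV cells and 2.04% to 2.41% in No sEV cells. Over the more abundant of the tested genes only, TIS sEV replicate 3 stood farthest from its group mean (SD 0.0885 on the log2 scale, against 0.0488 to 0.0724 in the other 8). Another measure, limma's library weights over all tested genes, is lower for more variable libraries. The lowest weights were those of Cont sEV replicate 2 (0.734) and TIS sEV replicate 2 (0.764), while TIS sEV replicate 3 had 1.07. The part of the marker sums in the results was not tested.

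The promoters of the 2 keratin-associated protein genes and of KRTAP2-4, the nearest relative of KRTAP2-3, are shown because only 1 of these 3 neighbouring genes had a level above 0. Of the 9 genes, 3 (KRTAP2-3, KRTAP1-5 and KRT8) had an entry in the RefSeq promoter table of GRCh38.p14. Each window runs 5′ to 3′ on the minus strand of chromosome 17, from 250 bases before the annotated start to 50 after it, with TATAAA in capitals.
KRTAP2-3 (chr17:41060065-41060364): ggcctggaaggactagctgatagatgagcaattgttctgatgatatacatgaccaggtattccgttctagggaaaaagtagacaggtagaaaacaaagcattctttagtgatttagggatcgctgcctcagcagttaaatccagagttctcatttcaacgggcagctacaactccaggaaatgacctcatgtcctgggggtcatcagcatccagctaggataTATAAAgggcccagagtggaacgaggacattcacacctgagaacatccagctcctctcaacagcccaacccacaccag
KRTAP2-4 (chr17:41065830-41066129): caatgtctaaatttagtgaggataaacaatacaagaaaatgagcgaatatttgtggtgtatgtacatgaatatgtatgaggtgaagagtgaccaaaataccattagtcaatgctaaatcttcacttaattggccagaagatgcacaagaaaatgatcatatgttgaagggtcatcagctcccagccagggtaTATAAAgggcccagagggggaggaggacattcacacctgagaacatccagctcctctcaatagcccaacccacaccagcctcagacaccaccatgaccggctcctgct
KRTAP1-5 (chr17:41027159-41027458): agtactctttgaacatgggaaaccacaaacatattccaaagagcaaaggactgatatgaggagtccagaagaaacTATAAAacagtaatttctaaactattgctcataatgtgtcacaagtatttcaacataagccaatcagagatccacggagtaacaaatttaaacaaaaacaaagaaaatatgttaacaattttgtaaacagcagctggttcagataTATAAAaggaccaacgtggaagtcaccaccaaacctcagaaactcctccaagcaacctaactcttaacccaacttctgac

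The hexamer TATAAA began at position -28 from the start in KRTAP2-3, at -58 in KRTAP2-4, and at -30 and -175 in KRTAP1-5. Searched on both strands, it occurred in 11.5% of the 35116 promoter windows of the table. KRTAP2-3 and KRTAP2-4 were nearly the same from that hexamer onward, with 74 of 78 bases identical and a longest common run of 38 bases. Upstream of the hexamer the likeness fell off with distance, with 27 of the nearest 50 bases identical and 47 of the next 142, compared without gaps. The letters next to the hexamer were still much alike. The AP-1 motif TGANTCA (in 7.71% of all windows) and the TEAD motif GGAATG (in 14.03%), both searched on both strands, were not among the letters of these 3 windows. GGAATG did occur in the KRT8 window, which is not shown, at position 18 from the start. A match or its absence describes the letters of the window and says nothing of a factor's binding.

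KRTAP2-3 (ENSG00000212724.3, chromosome 17 from 41059240 to 41060114, minus strand, GRCh38) was the single keratin-associated protein gene to reach 1 TPM in 3 libraries. Its level was 17.2, 18.7 and 16.3 TPM in TIS sEV cells, against 11.4, 11.9 and 12.3 TPM in Cont sEV cells and 12.04, 12.98 and 11.2 TPM in No sEV cells. The 3 TIS sEV libraries all lay above the 6 others, while the Cont sEV and No sEV libraries overlapped. On the log2(TPM + 1) scale, which slightly understates ratios at this level, the log2 fold change was 0.51 (SE 0.07, 95% interval 0.36 to 0.67) for TIS sEV vs Cont sEV and 0.49 (SE 0.07, interval 0.34 to 0.65) for TIS sEV vs No sEV. That corresponds to ratios of mean TPM of 1.47 and 1.44. In bulk RNA, more cells with the transcript and more transcript per cell cannot be told apart. For Cont sEV vs No sEV the log2 fold change was -0.0199 (SE 0.07, interval -0.18 to 0.14).

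The higher level of KRTAP2-3 was present within each library relative to its keratin transcripts, a ratio that does not depend on how the libraries are scaled. Per 100 TPM of all keratin genes, KRTAP2-3 stood at 1.14, 1.25 and 1.07 TPM in TIS sEV cells, at 0.793, 0.832 and 0.855 in Cont sEV cells and at 0.821, 0.917 and 0.767 in No sEV cells. The TIS sEV libraries were again all above the others. Against the hair keratin KRT81 alone the ratio was 0.492 ± 0.0446 in TIS sEV cells, 0.372 ± 0.0224 in Cont sEV cells and 0.378 ± 0.0276 in No sEV cells (SD, n = 3 each). With the mitochondrially encoded genes left out and the libraries rescaled, the log2 fold change of KRTAP2-3 for TIS sEV vs Cont sEV was 0.504. It lay between 0.463 (without TIS sEV replicate 2) and 0.559 (without TIS sEV replicate 3) with any 1 library left out.

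**Figure D1:**
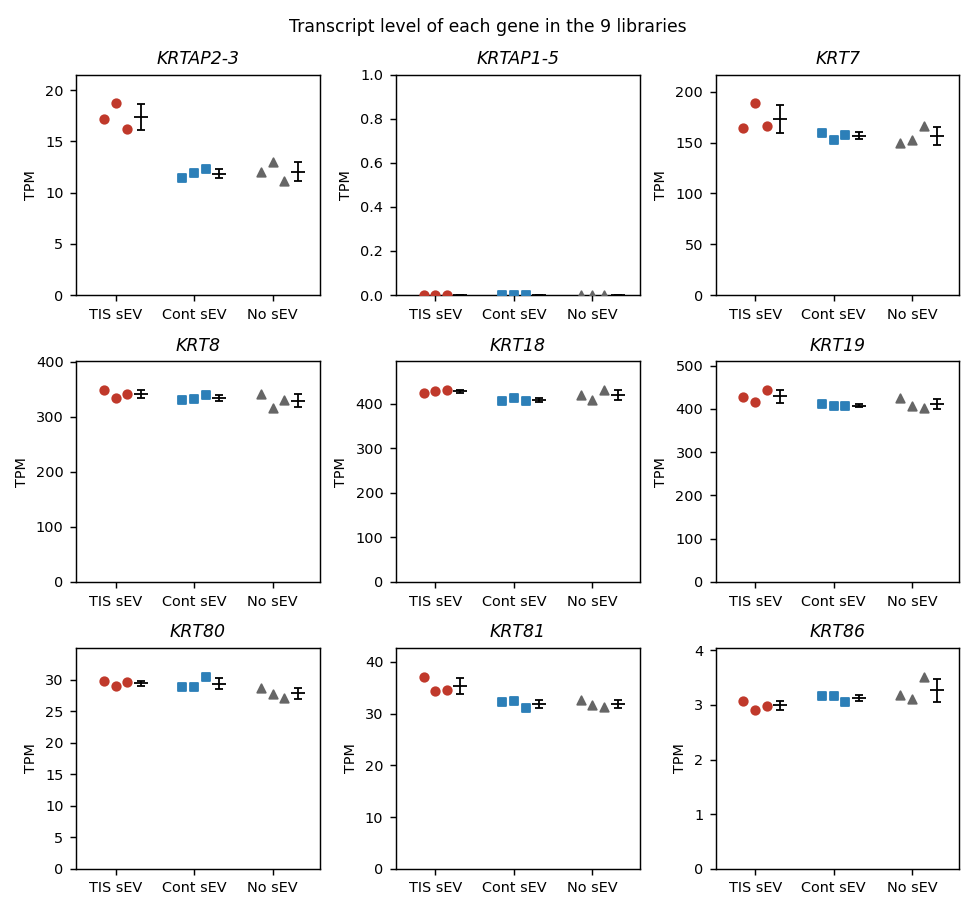
Transcript level (TPM, each axis from 0) of the 9 genes in the 3 TIS sEV (circles), 3 Cont sEV (squares) and 3 No sEV (triangles) libraries, with mean and SD (n = 3) as bars. KRTAP2-3 stood at 16.3 to 18.7 TPM in TIS sEV cells and at 11.2 to 12.98 TPM in the other 6 libraries, KRTAP1-5 was listed at 0, and the keratins differed by smaller ratios.

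KRTAP1-5 (chromosome 17 from 41026026 to 41027202, minus strand) lies in the same gene cluster and was listed at 0 TPM in all 9 libraries, so no fold change can be given for it. The same was true of KRTAP2-1, KRTAP2-2 and KRTAP2-4, the closest relatives of KRTAP2-3 in that cluster. Of 94 keratin-associated protein genes in the table, 74 were listed at 0 everywhere, and of those above 0 somewhere KRTAP2-3 alone passed that level. The zero values need care, because the estimates divide reads among similar transcripts. Of the 845 31-mers (runs of 31 bases) in the KRTAP2-3 transcript, 43.1% also occur in KRTAP2-4, 38.9% in KRTAP2-1 and 36.3% in KRTAP2-2, and in all 43.3% occur in at least 1 other gene. Summing the 4 KRTAP2 genes left each value as it was, since the relatives added 0.

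**Figure D2:**
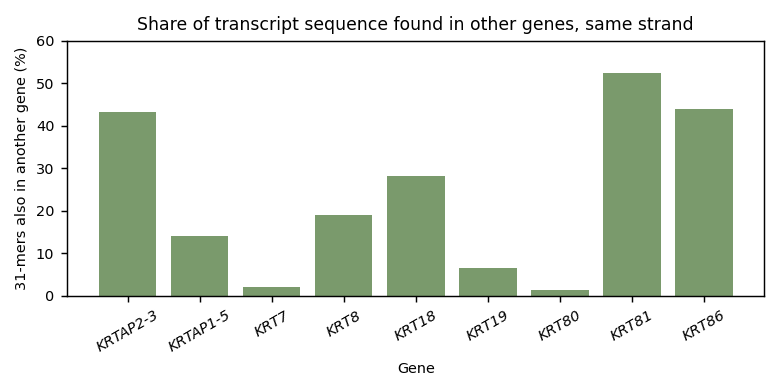
Bars give, for each of the 9 genes, the percentage of the 31-mers of its GENCODE 29 transcripts that also occur, on the same strand, in a transcript of another gene. The share was 52.4% for KRT81, 43.9% for KRT86 and 43.3% for KRTAP2-3, and 1.281% for KRT80.

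The simple-epithelial keratins were the most abundant of the 9 genes. KRT18, the type I partner of KRT8, averaged 418.6 TPM over the 9 libraries and KRT19, a type I keratin of ductal cells, 416 TPM. Their ranges overlapped, with KRT18 above KRT19 in 5 of 9 libraries, so their order is not settled by these data. KRT8 followed with 335 TPM and KRT7 with 162 TPM, then KRT81 with 33.1, KRT80 with 28.9, KRTAP2-3 with 13.8 and KRT86 with 3.13 TPM. Below KRT19, each gene lay above the next in all 9 libraries and the ranges of neighbours did not overlap. Together KRT7, KRT8, KRT18 and KRT19 made up 91.1 ± 0.173% of all keratin TPM in TIS sEV cells, 91.1 ± 0.0525% in Cont sEV cells and 91.1 ± 0.356% in No sEV cells (SD, n = 3 each).

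KRT18 stood at 424, 428 and 431 TPM in TIS sEV cells, against 406, 413 and 406 TPM in Cont sEV cells and 420.5, 408 and 430.04 TPM in No sEV cells. The TIS sEV libraries were all above the Cont sEV ones but overlapped No sEV. KRT8 was at 348, 334 and 342 TPM in TIS sEV cells, 330.4, 333 and 339.6 TPM in Cont sEV cells and 341, 317 and 331 TPM in No sEV cells, and all 3 groups overlapped. KRT8 and KRT18 are neighbours on chromosome 12 (52897187 to 52949954 on the minus strand and 52948871 to 52952901 on the plus strand in GENCODE 29), and their annotated ends overlap. The ratio of KRT8 to KRT18 within a library was 0.799 ± 0.0207 in TIS sEV cells, 0.818 ± 0.0161 in Cont sEV cells and 0.785 ± 0.0221 in No sEV cells (SD, n = 3 each), with overlapping groups. Their many processed pseudogenes were assigned little of the signal. The 51 for KRT8 held 1.67% to 2.05% of the TPM summed over gene and pseudogenes, and the 67 for KRT18 held 0.165% to 0.38002%. This division of reads is uncertain, as 18.9% of the 31-mers of KRT8 and 28.1% of those of KRT18 occur in other genes on the same strand.

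KRT19 (chromosome 17, 41523617 to 41528308) was at 428, 415 and 443 TPM in TIS sEV cells, against 411, 407 and 406 TPM in Cont sEV cells and 425, 406 and 403 TPM in No sEV cells. TIS sEV lay above Cont sEV without overlap and overlapped No sEV. KRT7 (chromosome 12, 52232520 to 52252186) was at 165, 189 and 166 TPM in TIS sEV cells, against 159, 153 and 158 TPM in Cont sEV cells and 149.96, 153 and 166 TPM in No sEV cells. TIS sEV replicate 2 was the high library. Its log2 fold change for TIS sEV vs Cont sEV was 0.14 (SE 0.06), and 0.0761 without that library.

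KRT80 (chromosome 12, 52168996 to 52192000) was at 29.8, 28.98 and 29.6 TPM in TIS sEV cells, 28.8, 28.9 and 30.4 TPM in Cont sEV cells and 28.7, 27.8 and 27.03 TPM in No sEV cells. Both vesicle groups lay above No sEV, by log2 fold changes of 0.079 for TIS sEV and 0.074 for Cont sEV (SE 0.04 each), and they overlapped each other. KRT80 was the 1 gene of the 8 tested whose Cont sEV and No sEV libraries did not overlap. The margin was far smaller than the replicate SDs (0.916 and 0.854 TPM): the lowest Cont sEV library held 28.78 TPM and the highest No sEV library 28.73.

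KRT81, a hair cortex keratin, had about the same fold changes for TIS sEV as KRT7, and the order of these 2 genes turned with the scaling and with the library left out. Its level was 37.1, 34.4 and 34.6 TPM in TIS sEV cells, against 32.3, 32.5 and 31.05 TPM in Cont sEV cells and 32.7, 31.7 and 31.3 TPM in No sEV cells. All 3 TIS sEV libraries lay above the 6 others. The log2 fold change was 0.14 (SE 0.04, 95% interval 0.047 to 0.24) against Cont sEV and 0.15 (SE 0.04, interval 0.0498 to 0.24) against No sEV. For Cont sEV vs No sEV it was 0.0031, and this sign changed with the scaling of the libraries.

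KRT86 did not share that pattern. It was at 3.08, 2.91 and 2.98 TPM in TIS sEV cells, against 3.16, 3.16 and 3.06 TPM in Cont sEV cells and 3.18, 3.11 and 3.51 TPM in No sEV cells. TIS sEV lay below No sEV without overlap and overlapped Cont sEV. The log2 fold change was -0.048 (SE 0.08) against Cont sEV and -0.095 (SE 0.08) against No sEV. The ratio of KRT86 to KRT81 was 0.08303, 0.0846 and 0.0861 in TIS sEV cells, 0.0978, 0.0972 and 0.0986 in Cont sEV cells and 0.0973, 0.09798 and 0.112 in No sEV cells, so it was lower in every TIS sEV library than in any other. The span of KRT86 (chromosome 12, 52249300 to 52309163, plus strand) contains that of KRT81 (52285913 to 52291534, minus strand). On the same strand, 42.5% of the 31-mers of KRT81 occur in KRT86 and 34.75% of those of KRT86 in KRT81, so the division of reads between them is uncertain. KRT83, another close relative, reached at most 0.0255 TPM. With KRT81, KRT83 and KRT86 summed, the log2 fold change was 0.126 against Cont sEV and 0.123 against No sEV.

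**Figure D3:**
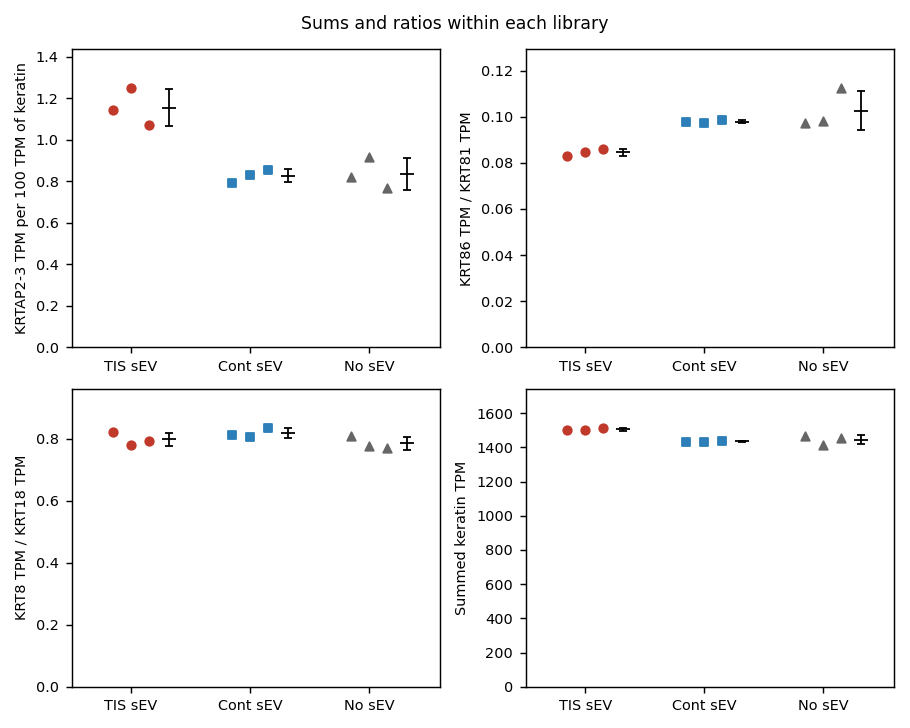
Ratios and sums computed within each library, with each axis from 0 and mean and SD (n = 3) as bars, for TIS sEV (circles), Cont sEV (squares) and No sEV (triangles). KRTAP2-3 per 100 TPM of keratin was 1.07 to 1.25 in TIS sEV cells and 0.767 to 0.917 elsewhere, KRT86 over KRT81 was lowest in TIS sEV cells, and KRT8 over KRT18 overlapped between groups.

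Across all genes the fit was limma's moderated test on log2(TPM + 1), with Benjamini-Hochberg adjustment over 13879 genes, those reaching 1 TPM in 3 or more libraries. It covered 8 of the 9 genes, KRTAP1-5 being too low. For TIS sEV vs Cont sEV it called 1 of the 8, KRTAP2-3, where 0.0937% of all genes were called. As KRTAP2-3 is taken to be chosen on this contrast, nothing is read from that count, and the call was lost without TIS sEV replicate 1, 2 or 3, Cont sEV replicate 1, 2 or 3, No sEV replicate 1 or No sEV replicate 3. It was also lost with no filter on low values, with the replicate number as a block, with a constant prior variance and with only the libraries compared in the fit. The 7 keratins had adjusted p-values from 0.301 to 0.986 in limma. KRTAP2-3 is left out of the counts that follow for this comparison. Of the 7 keratins, 4 (KRT7, KRT18, KRT19 and KRT81) had an unadjusted p under 0.05, where 10% of all genes did. The same 4 had TIS sEV libraries above all Cont sEV libraries, where 10.9% of all genes did, and 0 had them below, where 4.47% did. The mean was higher in 6 of the 7, where it was for 59.6% of all genes. The log2 fold changes of the 7 had a median of 0.067, beside 0.0203 for all tested genes.

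For TIS sEV vs No sEV limma called 0 of the 8 (adjusted p from 0.130 to 0.809), where 0.00721% of all genes were called. With KRTAP2-3 again left out, 2 of the 7 keratins (KRT7 and KRT81) had an unadjusted p under 0.05, where 7.97% of all genes did. Groups did not overlap in 2 that were higher (KRT80 and KRT81), where 11.3% of genes were, and in 1 that was lower (KRT86), where 2.77% were. The mean was higher in 6 of the 7, where it was for 66.7% of all genes. Since TIS sEV libraries enter both comparisons, these counts and those against Cont sEV share their data.

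For Cont sEV vs No sEV limma called 0 of the 8 (adjusted p from 0.861 to 0.996), as for all genes (0%), and 0 stood at an unadjusted p under 0.05, where 6.03% of all genes did. Groups did not overlap in 1 that was higher (KRT80), where 6.72% of genes were, and in 0 that were lower, where 4.47% were. The mean was higher in 4 of the 8, and in 4 of the 7 keratins without KRTAP2-3, where it was for 56.5% of all genes. The 95% intervals of the 8 log2 fold changes together reached from -0.23 to 0.17.

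**Figure D4:**
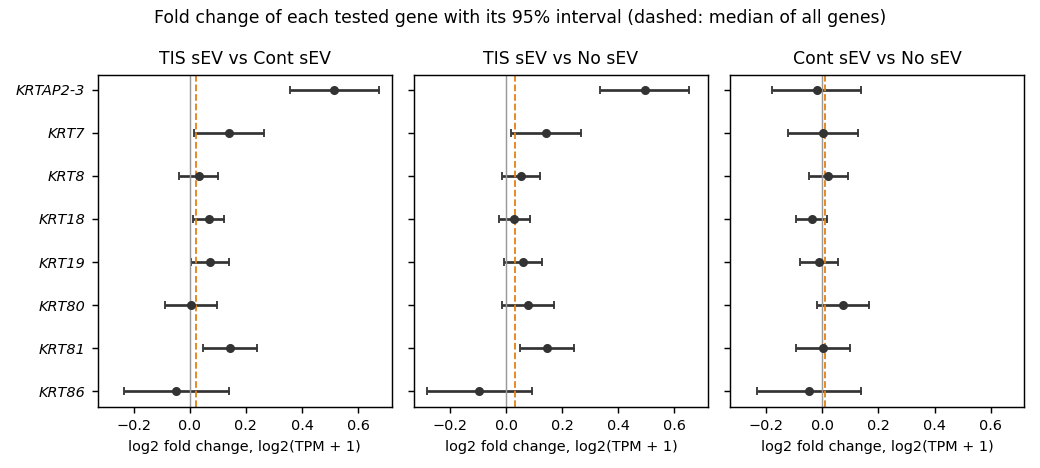
Log2 fold change on the log2(TPM + 1) scale of the 8 tested genes in the 3 comparisons, as points with 95% intervals, with a solid line at 0 and a dashed line at the median of all tested genes (0.0203, 0.032 and 0.011 from left to right). KRTAP2-3 stood at 0.51 and 0.49 in both TIS sEV panels and at -0.0199 in the third, and KRT80 was the gene farthest above 0 in the third.

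Of 55 coding keratin genes in the table, 33 were listed at 0 in all libraries, 12 were above 0 somewhere but too low to test, and 10 were tested. The 3 tested keratins not yet described were KRT10, a type I keratin of suprabasal epidermis, KRT15, a type I keratin of basal layers, and KRT34, a type I hair keratin. KRT10 was at 48.8 ± 0.803 TPM in TIS sEV cells, 47.003 ± 0.988 in Cont sEV cells and 47.9 ± 3.26 in No sEV cells. KRT15, named to complete the 10 after its values were seen, was at 14.1 ± 0.157, 13.2 ± 0.451 and 13.97 ± 1.48 TPM in the same groups. KRT34 was at 2.64 ± 0.706 TPM in TIS sEV cells, where replicate 2 held 3.46, at 2.33 ± 0.143 in Cont sEV cells and at 2.38 ± 0.0718 in No sEV cells (SD, n = 3 each). None of these 3 was called by limma in any comparison. All keratin TPM summed to 1503, 1499 and 1516 in TIS sEV cells, to 1435, 1432 and 1439 in Cont sEV cells and to 1466, 1416 and 1455 in No sEV cells. The TIS sEV sums were the 3 highest, 1.05 times the mean in Cont sEV cells and 1.04 times that in No sEV cells, with no test made, and all tested genes also shifted, by a median log2 fold change of 0.0203 and 0.032. Such small differences depended on the scaling: with median of ratios scaling, the log2 fold change for TIS sEV vs Cont sEV was 0.0105 for KRT8 (0.032 as deposited). For KRT18 it was 0.045 (SE 0.028), against 0.067 (SE 0.025) as deposited. For KRT19 it was 0.050 (SE 0.036), against 0.072 (SE 0.031) as deposited. For TIS sEV vs No sEV it was -0.0063 for KRT18 (0.028 as deposited), 0.019 for KRT8 (0.053) and 0.025 for KRT19 (0.059). The ratio of type I to type II keratin TPM was 1.59 ± 0.0458, 1.58 ± 0.0222 and 1.63 ± 0.0292 in these groups and overlapped throughout.

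By list, and with no test of the lists, 4 of 17 type I and 3 of 20 type II epithelial keratin genes were tested. Limma called 0 of them in any comparison, where it called 0.0937%, 0.00721% and 0% of all genes. Nothing is read from this or the other 0 counts of calls below. For TIS sEV vs Cont sEV 2 type I and 1 type II genes had an unadjusted p under 0.05, where 10% of all genes did. For TIS sEV vs Cont sEV the median log2 fold change was 0.069 for type I and 0.032 for type II, beside 0.0203 for all genes, and for TIS sEV vs No sEV it was 0.028 and 0.079, beside 0.032. Of 6 type II hair keratins, 2 were tested (KRT81 and KRT86) and 0 called, and of 11 type I hair keratins 1 was tested and 0 called. Of 150 keratin pseudogenes 2 were tested, KRT8P3 and KRT8P12, at 3.04 ± 0.732 and 2.42 ± 0.378 TPM in TIS sEV cells and 2.65 ± 0.408 and 2.37 ± 0.1203 TPM in Cont sEV cells, and 0 were called.

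Among genes that work with keratin filaments limma made no call, where it called 0.0937%, 0.00721% and 0% of all genes in the 3 comparisons. With so few calls anywhere, nothing is read from these 0 counts. Of 16 other intermediate filament genes 9 were tested, and 0 called in any comparison. Against Cont sEV, 6 of the 9 were higher in TIS sEV cells (59.6% of all genes were), 3 had an unadjusted p under 0.05 (10% of all genes) and the median log2 fold change was 0.041 (0.0203 for all genes). VIM, the mesenchymal filament gene, was at 2285 ± 16.7 TPM in TIS sEV cells, 2221 ± 16.97 in Cont sEV cells and 2239.6 ± 1.86 in No sEV cells. The nuclear lamin gene LMNA was at 356 ± 10.7, 344.5 ± 4.28 and 337 ± 10.97 TPM in the same groups, and LMNB2 at 103 ± 3.62, 92.95 ± 3.35 and 96.8 ± 1.65 TPM. Of 19 genes that anchor keratins to desmosomes and other structures, 13 were tested and 0 called in any comparison, with a median log2 fold change of 0.026 for TIS sEV vs Cont sEV (0.0203 for all genes) and 1 at an unadjusted p under 0.05 (10% of all genes). Among them the plakin genes DST and PLEC stood at 90.7 ± 11.3 and 90.15 ± 5.13 TPM in TIS sEV cells and 89.2 ± 16.97 and 84.4 ± 7.72 TPM in Cont sEV cells, and PNN at 68.8 ± 4.22 and 63.3 ± 3.76 TPM.

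Of 20 epithelial adhesion and polarity genes 14 were tested and 0 called in any comparison (0.0937%, 0.00721% and 0% of all genes were). The median log2 fold change was 0.063 for TIS sEV vs Cont sEV (0.0203 for all genes), with 2 at an unadjusted p under 0.05 (10% of all genes). The median for TIS sEV vs No sEV was 0.0295 with 0 such genes (7.97% of all genes), and for Cont sEV vs No sEV -0.028 with 3 (6.03% of all genes). The claudin genes CLDN7 and CLDN4 stood at 83.97 ± 5.54 and 70.06 ± 0.678 TPM in TIS sEV cells and 89.7 ± 2.76 and 71.4 ± 1.71 TPM in Cont sEV cells. LSR, a tricellular junction gene, stood at 79.5 ± 3.38 TPM in TIS sEV cells and 70.5 ± 1.94 TPM in Cont sEV cells. Of 20 transcription factor genes with roles in epithelial or keratin gene expression 12 were tested and 0 called, beside the same shares of all genes. Their median was 0.043 for TIS sEV vs Cont sEV and 0.086 for TIS sEV vs No sEV (0.0203 and 0.032 for all genes). At an unadjusted p under 0.05 stood 0 and 1 of them (10% and 7.97% of all genes). The most abundant were KLF4 at 67.6 ± 2.35 TPM in TIS sEV cells and 65.2 ± 3.49 in Cont sEV cells, SP3 at 34.1 ± 1.397 and 32.95 ± 0.366, and the epithelial repressor ZEB1 at 26.7 ± 1.88 and 27.6 ± 3.36 TPM.

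Among 10482 genes averaging 5 TPM or more, the 5 whose pattern was most like that of KRTAP2-3 over the 9 libraries were PARD3, RNF113A, RBM24, F3 and MUSK. Pearson's r of log2(TPM + 1) with KRTAP2-3 was 0.961 for PARD3, a cell polarity gene, and 0.937 to 0.956 for the other 4. These are the highest of many correlations and are given as a description, with no p, and the TIS sEV libraries stand apart from the rest in each. Over the 6 Cont sEV and No sEV libraries r was 0.949 for PARD3, 0.695 for RBM24, 0.456 for RNF113A, 0.197 for MUSK and -0.321 for F3. These 6 were among the 9 libraries used to pick the genes, so these values are no separate check. PARD3 was at 50.3, 50.2 and 48.9 TPM in TIS sEV cells, 45.4, 45.4 and 46.99 TPM in Cont sEV cells and 46.4, 47.7 and 44.9 TPM in No sEV cells. F3, the tissue factor gene, was at 346, 359 and 338 TPM in TIS sEV cells, 291, 299 and 297 TPM in Cont sEV cells and 299.997, 297 and 309 TPM in No sEV cells.

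The keratins ranked lower in that likeness. KRT81 had r = 0.834 over the 9 libraries, rank 112 of the 10482, and KRT7 r = 0.7102, rank 554, while KRT19, KRT18, KRT80 and KRT8 had r from 0.4097 to 0.593. Over the 6 Cont sEV and No sEV libraries r was -0.073 for KRT81 and -0.687 for KRT7, so within those groups they did not follow KRTAP2-3. KRT86, with a mean under 5 TPM, was not ranked.

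**Figure D5:**
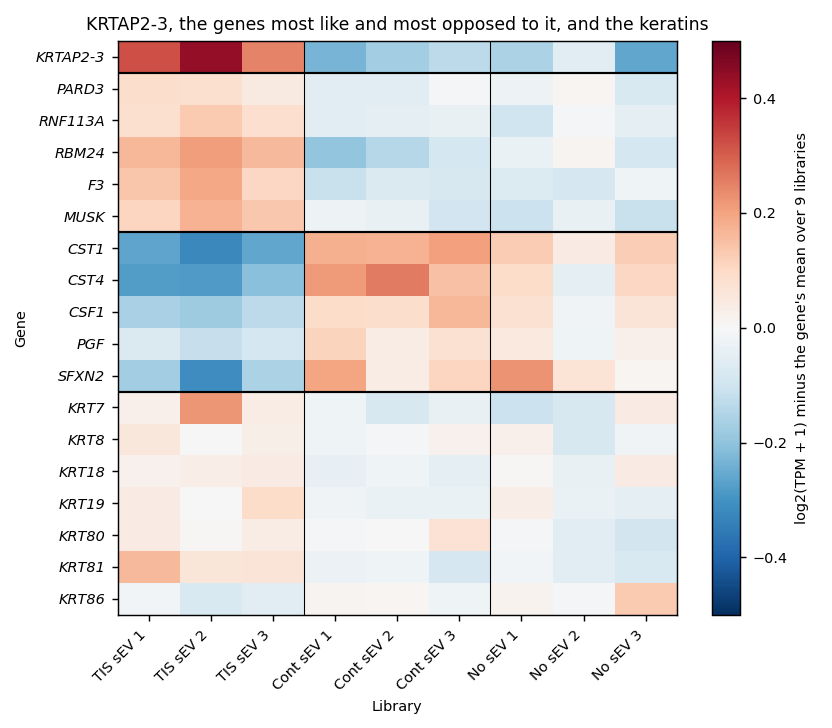
Heat map of log2(TPM + 1) minus each gene's mean over the 9 libraries (columns, TIS sEV, Cont sEV and No sEV from left to right) for KRTAP2-3, the 5 genes most like it, the 5 with the most opposed pattern and the 7 keratins (blocks from top to bottom). KRTAP2-3 has the deepest colours, the opposed block (CST1, with r = -0.968, to SFXN2, with r = -0.897) is inverted, and among the keratins KRT81 is the row most like KRTAP2-3.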

How the data were processed

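Gene-level TPM were deposited by the authors as 1 table of 60719 Ensembl genes, and all 9 sample columns were used. Per the submitters' processing notes, FastQC 0.11.9, Trim Galore 0.6.6, Salmon 1.4.0, DESeq2 1.28.0 and GRCh38.p13 were used; which annotation release they used was not stated. Depth cannot be recovered from TPM, so no count model was run. Symbols were matched by Ensembl ID (99.51%). Gene coordinates and 31-mers came from GENCODE 29, whose gene versions differ from the table's for some genes.

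Values were taken as log2(TPM + 1), and the 13879 genes reaching 1 TPM in 3 or more of 9 libraries were kept. One limma 3.58.1 model (R 4.3.3, variance trend on expression, two-sided, no block) was fitted to all 9 libraries, with Benjamini-Hochberg adjustment over all genes at 0.05. The step was tested on simulated data. Promoters were aligned at TATAAA without gaps, and figures drawn with matplotlib 3.10.9.

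The 9 genes, the gene lists and the comparisons were chosen with earlier results of these data known. Named beyond the 9 genes were up to 3 genes of highest mean TPM per list, any called gene, close relatives, and the 5 genes of highest Pearson's r with KRTAP2-3. Deviations from group means correlated by -0.0479 to 0.0791 between same-numbered libraries and by -0.101 to 0.1002 between differently numbered ones. No pairing by replicate number was thus seen, but these correlations cannot exclude a shared day or culture. Alternatives were other pseudocounts, filters and scalings, the replicate block, a constant prior variance, library weights, fewer libraries, and sums over similar genes.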

Additional observations from a re-analysis of the deposited data

How the results depend on the processing

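For TIS sEV vs Cont sEV the count of called genes among the 8 (KRTAP2-3 alone) was 1 in 8 of 21 settings and 0 in 13. It was 0 with the replicate block, with no filter on low values, with a constant prior variance and with only the libraries compared. It was also 0 without both TIS sEV replicate 2 and Cont sEV replicate 2, a choice made after seeing the data. With 1 library left out it was 0 to 1, and stayed at 1 without No sEV replicate 2. The log2 fold change of KRTAP2-3 lay between 0.463 and 0.559 over its 22 settings. All of these shifts were smaller than the spread between replicates, but many could not have been larger. Leaving out 1 library cannot move a fold change by more than that spread. A block, another prior variance or another filter leaves it as it was. The small shifts are therefore no test of stability. In the other comparisons the count was 0 in all 21 settings. Of 516 recomputed fold changes, 510 moved by less than the spread between replicates, a count with the same limit. Of the 516, 26 changed sign, none of them called. On rescaling, KRT80 for TIS sEV vs Cont sEV, KRT7 and KRT81 for Cont sEV vs No sEV and KRT18 for TIS sEV vs No sEV did so. The causes were not tested. Unknown depth and 3 libraries per group limit what can be detected.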
